A study of Mus musculus with 2 samples.

Results

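The genes described here are p53 (Trp53), its inhibitors Mdm2 and Mdm4, and genes that p53 and other stress signals induce: Ccng1, Sesn1, Sesn2, Gadd45a, Gadd45b, Plk3 and Trp53inp1. They were taken by name from the array's platform annotation, through probe sets assigned to exactly 1 gene symbol. Of the 10 genes, 9 were measured, out of 19938 genes in the whole table; Trp53 itself was not analysed here. The series profiled KSL cells, bone marrow cells positive for c-Kit and Sca-1 and lacking lineage markers, which are enriched for haematopoietic stem cells. One group was Nrf2-/- (Nrf2 KO) and the other Nrf2+/+ wild type, both healthy C57BL/6J mice aged 8 to 10 weeks. Marrow of 5 mice was pooled per genotype before sorting, and 1 RNA pool per genotype was hybridised to 1 Affymetrix Mouse Gene ST 1.0 array. The labels give neither the deleted part of the Nrf2 gene nor a cell type restriction of the deletion.

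The protein p53 is a transcription factor that is held at a low level by MDM2, which marks it for degradation, and MDM4, which blocks its activity. DNA damage and other stresses release it, and it then induces genes for cell cycle arrest, DNA repair, apoptosis, antioxidant defence and its own feedback inhibition. In haematopoietic stem cells p53 is known for its part in quiescence and in the loss of damaged cells. Several of its targets also answer to other signals: Gadd45b to NF-kB and TGF-beta, Sesn2 to ATF4 and NRF2, and Plk3 to growth factors as an immediate early gene.

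To show what the promoters of the members hold, the 250 bases before each annotated transcript start were taken from RefSeq on GRCm38.p6 and searched on both strands for 9 motifs. A promoter entry was matched for 8 of the 9 measured members, in 10 windows, since Mdm4 and Sesn1 had 2 starts each. The member with the largest difference between genotypes and its paralog are shown first, 5′ to 3′ on the gene's strand up to the last base before the start, with motif matches in capitals.

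Gadd45b, chr10:80929841-80930090, plus strand: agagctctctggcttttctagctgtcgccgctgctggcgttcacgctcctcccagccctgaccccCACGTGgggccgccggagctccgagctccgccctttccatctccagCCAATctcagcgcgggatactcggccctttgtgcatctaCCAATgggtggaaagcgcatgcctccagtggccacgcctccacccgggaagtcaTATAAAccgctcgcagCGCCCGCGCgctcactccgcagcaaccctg

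Gadd45a, chr6:67037408-67037657, minus strand: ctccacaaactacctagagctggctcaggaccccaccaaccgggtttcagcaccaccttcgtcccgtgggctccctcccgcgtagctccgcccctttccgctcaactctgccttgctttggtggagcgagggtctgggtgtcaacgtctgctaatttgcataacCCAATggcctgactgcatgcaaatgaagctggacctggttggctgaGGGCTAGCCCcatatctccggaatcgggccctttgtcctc

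The capitals in Gadd45b mark, from left to right, an E-box (CACGTG), 2 CCAAT boxes, the core promoter box TATAAA beginning 46 bases before the start, and an EGR site (GCGNGGGCG) read on the opposite strand. Those in Gadd45a mark a CCAAT box and, 40 bases before the start, a p53 decamer, the degenerate consensus that occurs in pairs in a full p53 response element. The kappaB consensus was matched in 0 of the 10 windows of the members, against 3.9% of all windows. The decamer was matched in 4 of the 10 windows of the members, against 7.13% of the 32851 promoter windows of all genes. Only single decamers are listed, and p53 sites outside these windows, such as those within introns, were not searched. The remaining 3 decamers are shown with 10 bases on each side, so that their letters can be compared with the Gadd45a match.

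Mdm2, chr10:117710925-117710954, minus strand: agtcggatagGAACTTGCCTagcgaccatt

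Ccng1, chr11:40755452-40755481, minus strand: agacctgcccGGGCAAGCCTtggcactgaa

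Sesn1, chr10:41887256-41887285, plus strand: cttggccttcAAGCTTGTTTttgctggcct

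The Sesn1 decamer lay before the second of its annotated starts. The core of the antioxidant response element (TGACNNNGC), the sequence that NRF2 binds with a small MAF partner, was matched in 1 of the 10 windows, that of Sesn2, against 10.2% of all windows. It is shown because Sesn2 was the member that stood higher in the array labelled knockout.

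Sesn2, chr4:132510474-132510502, minus strand: cgcagcgggcTGACAGAGCcgggcgagcg

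The core began 36 bases before the Sesn2 start. An AP-1 site (TGANTCA) was matched in 1 of the 10 windows, at the first Mdm4 start, against 6.75% of all windows. EGR sites were matched in 2 windows, of Gadd45b and Sesn1, against 4.7% of all windows, and the cAMP response element (TGACGTCA) in 0 of the 10 windows, against 1.55%. CCAAT boxes occurred in 7 of the 10 windows and in 33.8% of all windows. E-boxes and TATA boxes were each matched in 1 window, that of Gadd45b, against 6.02% and 12.4% of all windows. The Plk3 window matched 0 of the 9 motifs. The share of G and C was 65.2% for Gadd45b, 59.2% for Gadd45a and as low as 41.6% for Mdm4, against a median of 52.4% over all windows; such composition alters how often each motif occurs.

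**Figure D1:**
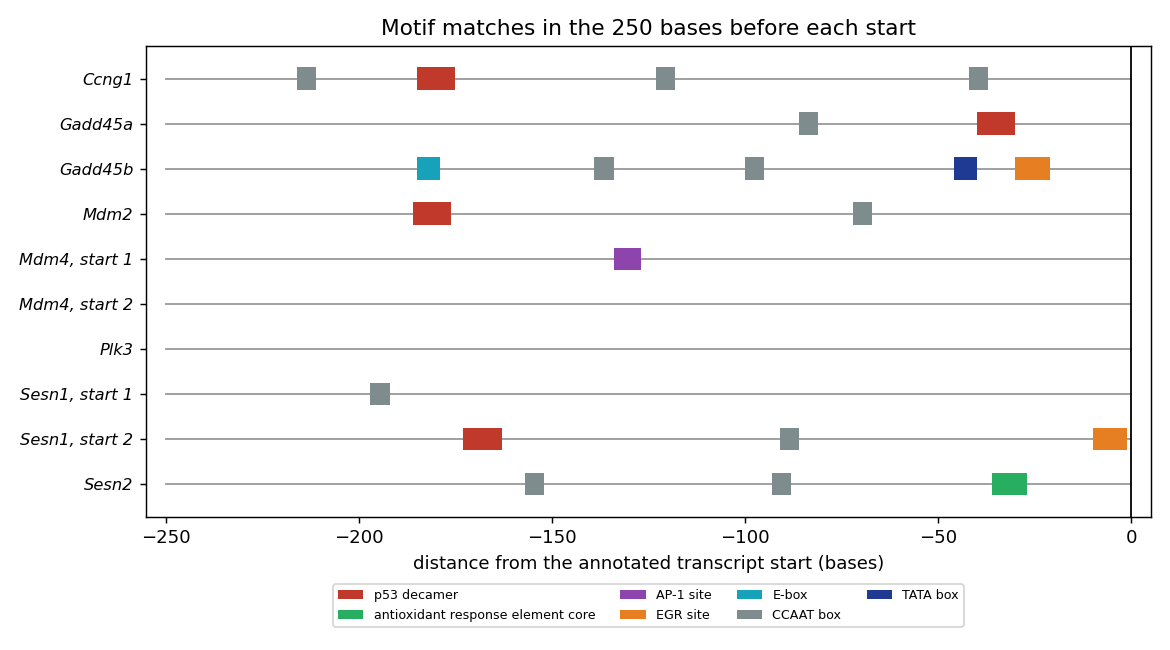
Position of each motif match in the 250 bases before the annotated transcript start, 1 line per start, with distance in bases on the horizontal axis and 1 colour per motif. The p53 decamer appears in Ccng1, Gadd45a, Mdm2 and the second Sesn1 start, and the antioxidant response element core appears in Sesn2.

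The values are log2 intensities from 1 array per genotype, so no difference has a replicate check and no test was possible. Each difference is the knockout value minus the wild-type value on the log2 scale, in which −1 is 2-fold lower. Levels are not compared between genes, because probe sets differ in brightness. All 9 measured members passed the level filter, a mean of both arrays of at least 6.57, and each was measured by 1 probe set. Among 515 genes with 2 probe sets, the differences from a single probe set had an SD of 0.32, or 0.17 by a robust estimate, which covers probe behaviour and not animals, sorts or amplifications. The 9970 genes past the filter had a median difference of −0.02 with an SD of 0.33. Nfe2l2, which encodes NRF2, stood at 9.07 on the array labelled knockout and 9.16 on the wild-type array, so its probe set did not set the genotypes apart. Of the 10 measured stem and progenitor markers, 6 were higher and 4 lower in the knockout array, with Mecom furthest among the lower, at −0.45. Kit stood at 11.21 and 10.93, Cd34 at 11.43 and 11.29 and Flt3 at 10.94 and 10.84 in the knockout and wild-type arrays; Ly6a, the gene of Sca-1, was not analysed here. Neutrophil markers, which a KSL sort should remove, were lower in the knockout array in 13 of 14 genes. Their summed unlogged intensities were 7192 against 17177, and such sums rest mostly on the brightest probe sets. The exception among the 14, Ly6g, stood at 5.41 and 4.90. Some lay well past the filter in both arrays, such as S100a9 at 11.30 and 12.25. Of the 12 past the filter, 4 had knockout values below the filter level, so they passed it through the wild-type array. Monocyte and macrophage markers were lower in 9 of 10, with sums of 1647 against 2224. The exception, Cd68, stood higher in the knockout array at 9.31 against 8.68, a difference of 0.63. Of the 7 past the filter, 2 had knockout values below the filter level. Markers of other lineages, without a level filter, stood on both sides of 0. Of B lineage markers 3 were lower and 5 higher, and of T and NK markers 6 were lower and 4 higher. Erythroid markers had 3 lower and 4 higher, and mast cell and basophil markers 6 lower and 2 higher. In bulk RNA, fewer cells of a type and less RNA per cell cannot be told apart.

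Of the 9 measured members, 8 stood lower in the knockout array and 1 higher, while 52.9% of all genes past the filter were lower. Their median difference was −0.20, against −0.02 over all genes past the filter. Most of these differences were small: 8 of the 9 lay within 1.5-fold. Gadd45b was the exception at 2.03-fold lower, where 4.3% of all genes were lower by 1.5-fold or more and 0.762% by 2-fold or more.

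**Figure D2:**
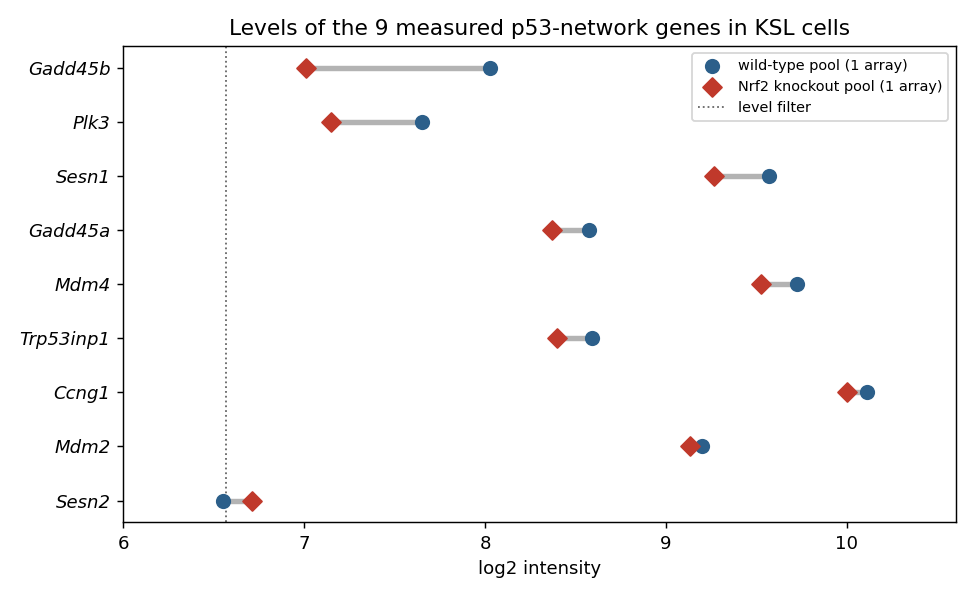
Log2 intensity of the 9 measured members in the wild-type array (circles) and the Nrf2 knockout array (diamonds), ordered by difference, with a dotted line at the level filter of 6.57. Gadd45b has the widest gap, from 8.03 to 7.01, Plk3 the next, and Sesn2 is the member whose knockout value lies to the right; positions along the axis are not comparable between genes.

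Of the inhibitors of p53, Mdm2 was close to level and Mdm4 lay at the median of the members. Mdm2, the ubiquitin ligase that p53 itself induces as a brake, stood at 9.13 in Nrf2-/- and 9.20 in Nrf2+/+ cells, a difference of −0.07. Its knockout level was 95.4% of the wild-type level, and 44.4% of the 500 genes nearest in mean level had a lower difference. Mdm4, the related inhibitor without effective ligase activity of its own, stood at 9.53 and 9.73, a difference of −0.20. For Mdm4, 21.0% of the 500 genes nearest in mean level had a lower difference. Both gaps were smaller than the probe-set SD of 0.32, but that of Mdm4 was larger than the robust estimate of 0.17. Ccng1, which encodes cyclin G1 and is a p53 target that feeds back on MDM2, stood at 10.00 and 10.11. Its difference of −0.11 was smaller than both estimates. Trp53inp1, a stress-induced nuclear protein that promotes p53-dependent apoptosis and autophagy, stood at 8.40 and 8.59. Its difference of −0.20 was smaller than the SD of 0.32 and larger than the robust estimate. Mdm2 and Ccng1 showed the smallest absolute differences of the 9 members. The 4 members with a p53 decamer before a start differed by −0.07 for Mdm2, −0.11 for Ccng1, −0.21 for Gadd45a and −0.31 for Sesn1. All 9 measured members ran from −1.02 for Gadd45b to 0.16 for Sesn2.

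Of a list of p53 regulators that includes Mdm2 and Mdm4, 27 genes passed the filter, and 14 of them were lower and 13 higher. Without these 2 members, 12 were lower and 13 higher, with a median of 0.01. The median of all 27 was −0.05. Of the 27, 0 reached 1.5-fold in either direction, where 4.3% of all genes were lower and 2.34% higher by that size. In so short a list, 0 says little. Rchy1, which encodes PIRH2, another ubiquitin ligase for p53, stood at 8.04 and 8.57, a difference of −0.53. Atr, the kinase that signals stalled replication to p53, stood higher at 8.55 against 8.04, a difference of 0.52, and the kinase Dyrk2, which phosphorylates p53, differed by −0.37. The damage kinase Atm differed by 0.15 and the phosphatase Ppm1d, which switches the response off, by −0.20, both named outside the rule for their known roles. In a list of 10 genes grouped as feedback on p53, 8 were lower with a median of −0.18. Dyrk3, a kinase that acts on the p53 deacetylase SIRT1, was the furthest at 7.42 and 8.34, a difference of −0.93, and Trim13 differed by −0.51. Mdm2, Ccng1 and Trp53inp1 belong to this list, and 5 of its other 7 genes were lower.

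The GADD45 genes encode small stress proteins that bind the kinase MAP3K4 and lead to p38 and JNK signalling, and GADD45 proteins also bind PCNA and cyclin-dependent kinase partners. Gadd45b, first described as a gene of myeloid differentiation, stood at 7.01 in Nrf2-/- and 8.03 in Nrf2+/+ cells. The gap of −1.02 put the knockout level at 49.2% of the wild-type level. Of the 500 genes nearest in mean level, whose differences had an SD of 0.34, 1 had a difference as low or lower. Gadd45a, the member of the family that p53 induces most directly, stood at 8.37 and 8.58, a difference of −0.21. For Gadd45a, 29.0% of the 500 genes nearest in level were lower, so its position was unlike that of Gadd45b although both had the same sign. The remaining paralog Gadd45g, at 5.70 and 5.89, lay below the level filter. The contrast within the family has no test, since each gene had 1 value per genotype.

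Kinases downstream of the GADD45 proteins stood mostly lower, by less than Gadd45b. Of the 10 genes past the filter in the list of the family and its partners, 8 were lower, with a median of −0.26 over all 10. Without Gadd45a and Gadd45b, 6 of 8 were lower, with a median of −0.25. These 8 include Gadd45gip1, not a kinase gene, which stood higher by 0.18 and is named outside the rule. Map2k6, which activates p38, stood at 7.12 and 7.61, a difference of −0.49. Mapk9, which encodes JNK2, stood higher at 9.17 against 8.69, a difference of 0.48. Named outside the rule, Map3k4 differed by −0.18 and Mapk14, the gene of p38 alpha, by −0.34.

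Sestrins are stress proteins that restrain mTORC1 through the GATOR complexes and support the regeneration of peroxiredoxins, and the p53 targets Sesn1 and Sesn2 had differences of opposite sign. Sesn1 stood at 9.26 in Nrf2-/- and 9.57 in Nrf2+/+ cells, a difference of −0.31, and 60 of the 500 genes nearest in level were as low or lower. Sesn2 stood at 6.71 and 6.55, a difference of 0.16; its wild-type value lay just under the filter of 6.57, where weak signal makes a difference less sure. Both gaps were within the probe-set SD of 0.32, but that of Sesn1 was larger than the robust estimate of 0.17. The paralog Sesn3, which FOXO factors induce, was level at 7.70 and 7.74, and its sign turned under quantile normalization. In the wider list of sestrins, GATOR subunits and AMPK, 11 of 17 genes were lower and 6 higher, with a median of −0.10. At 1.5-fold there were 0, where 4.3% of all genes were lower and 2.34% higher, so the count says little. Sesn1 and Sesn2 are counted there. Of the 17, 2 had a knockout value and 1 a wild-type value below the filter level. The furthest were the GATOR and nuclear pore subunit Seh1l at 0.53, the AMPK subunit Prkab1 at −0.43 and the AMPK catalytic subunit Prkaa2 at 0.41.

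Plk3, a stress-responsive polo-like kinase that can phosphorylate p53, had the largest absolute difference after Gadd45b. It stood at 7.15 in Nrf2-/- and 7.65 in Nrf2+/+ cells, a difference of −0.50, so that 70.6% of the Nrf2+/+ level was left. Of the 500 genes nearest in level, 7.2% were lower, and the gap was larger than the probe-set SD. Plk2, its closest stress-induced relative and also a p53 target, stood at 8.40 and 8.66, a difference of −0.27. The mitotic kinase Plk1 differed by −0.14 and the centriole kinase Plk4 by 0.06, while Plk5, at 6.30 and 6.18, lay below the filter. The stress-responsive kinases Plk2 and Plk3 thus had the lowest differences of the 4 family members past the filter.

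**Figure D3:**
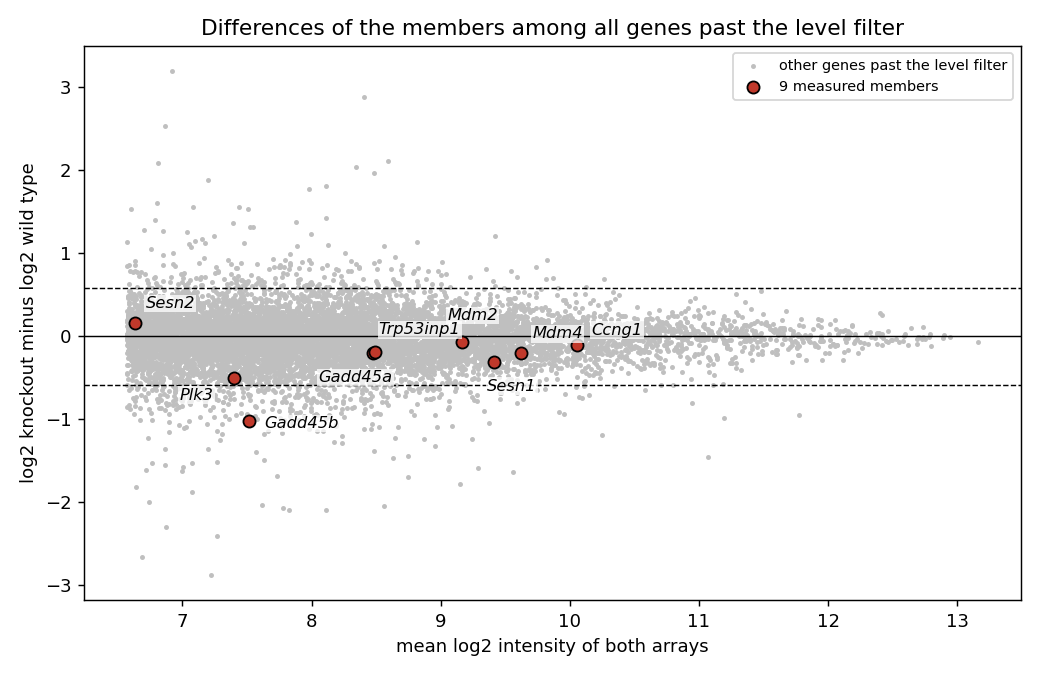
Difference between the arrays (log2 knockout minus log2 wild type) against mean log2 intensity, with 1 point per gene past the level filter, the 9 measured members in red and dashed lines at 1.5-fold. Gadd45b at −1.02 lies below the lower dashed line at the edge of the genes of its level, and the other 8 members lie between the lines.

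The wider lists of p53 targets, which include members, stood on both sides of 0. Of 9 arrest genes past the filter, 5 were lower and 4 higher, with a median of −0.11. The lower genes include Ccng1, Plk3 and Gadd45a, and of the other 6 genes 2 were lower and 4 higher. Ckap2, which encodes a spindle protein, stood higher at 7.92 against 7.30, a difference of 0.62. It was the 1 gene of the 5 p53 target lists to stand at least 1.5-fold higher, where 2.34% of all genes did. Of 13 apoptosis genes, 9 were lower, with a median of −0.19, and without Trp53inp1, 8 of 12 were. Among the 13, 1 had a knockout value below the filter level. Pmaip1, the gene of the BH3-only protein NOXA, stood at 6.89 and 7.38, a difference of −0.49, and the BH3-only gene Bid differed by −0.38. Apaf1, the core of the apoptosome, stood higher by 0.31, and Bbc3, the gene of PUMA, lay below the filter at 5.87 and 5.93. The arrest gene Cdkn1a and the apoptosis gene Bax were not analysed here.

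Repair and metabolic targets were similarly split. Of 10 DNA repair genes, 7 were lower and 3 higher, with a median of −0.07; without Gadd45a, 6 of 9 were lower. Rrm2b, the p53-induced ribonucleotide reductase subunit, stood higher at 8.74 against 8.24, a difference of 0.50, and the nuclease gene Ercc5 by 0.36, while the damage sensor Ddb2 differed by −0.33. Of 9 genes of metabolism and antioxidant defence, 6 were lower, with a median of −0.22; without Sesn1 and Sesn2, 5 of 7 were. Mitochondrial superoxide dismutase, Sod2, was 1.53-fold lower, at 8.19 against 8.80, and the dicarbonyl and xylulose reductase Dcxr differed by −0.38. Sod2 is also induced by NF-kB.

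Other signals that reach the same members were read from lists of their own. In the list of ATF4 and the integrated stress response, to which Sesn2 also answers, 5 of 10 genes were lower and 5 higher, with a median of −0.04, and Sesn2 is 1 of the 5 higher. Atf4 itself stood at 9.80 and 9.75, and Ddit3, the gene of CHOP, at 9.06 and 9.17, both named outside the rule. Ppp1r15a, also called Gadd34, differed by −0.38, the ER stress kinase Eif2ak3 stood higher by 0.28, and Atf3 stood at 9.49 against 10.43, a difference of −0.93. In the NF-kB response list, all 13 genes past the filter were lower, with a median of −0.39. At least 1.5-fold lower were 5 of them, where 4.3% of all genes were, and 4 under quantile normalization or loess. Among them Tnfaip3, a feedback inhibitor of NF-kB, stood at 8.06 against 8.67, a difference of −0.61, the chemokine Cxcl2 differed by −1.44 and the chemokine Ccl5 by −0.70. Cxcl10 and Il1b were the furthest, at −2.40 and −1.88, with knockout values of 6.07 and 6.14 that lay below the filter level, so they passed the filter through the wild-type array; with no filter, all 14 measured genes of the list were lower, with a median of −0.36. Of 15 immediate early genes, 14 were lower and 1 higher, with a median of −0.35. Among these, 2 were at least 1.5-fold lower, where 4.3% of all genes were. They were the transcription factor genes Egr2 at −0.95 and Atf3 at −0.93. The phosphatase gene Dusp1 followed at −0.41.

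Gadd45b, which NF-kB induces, and Plk3, itself an immediate early gene, were the lowest members. In the same array, without a level filter, 14 of 14 measured NF-kB list genes and 14 of 15 immediate early genes were lower. Of all genes past the filter, 52.9% were lower. Both lists were chosen with earlier results of these data known. The 14 measured neutrophil markers, without a level filter, had a median difference of −1.54 in that array, and the 10 measured monocyte and macrophage markers one of −0.73. The part of these cells and signals in the Gadd45b and Plk3 differences was not tested.

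**Figure D4:**
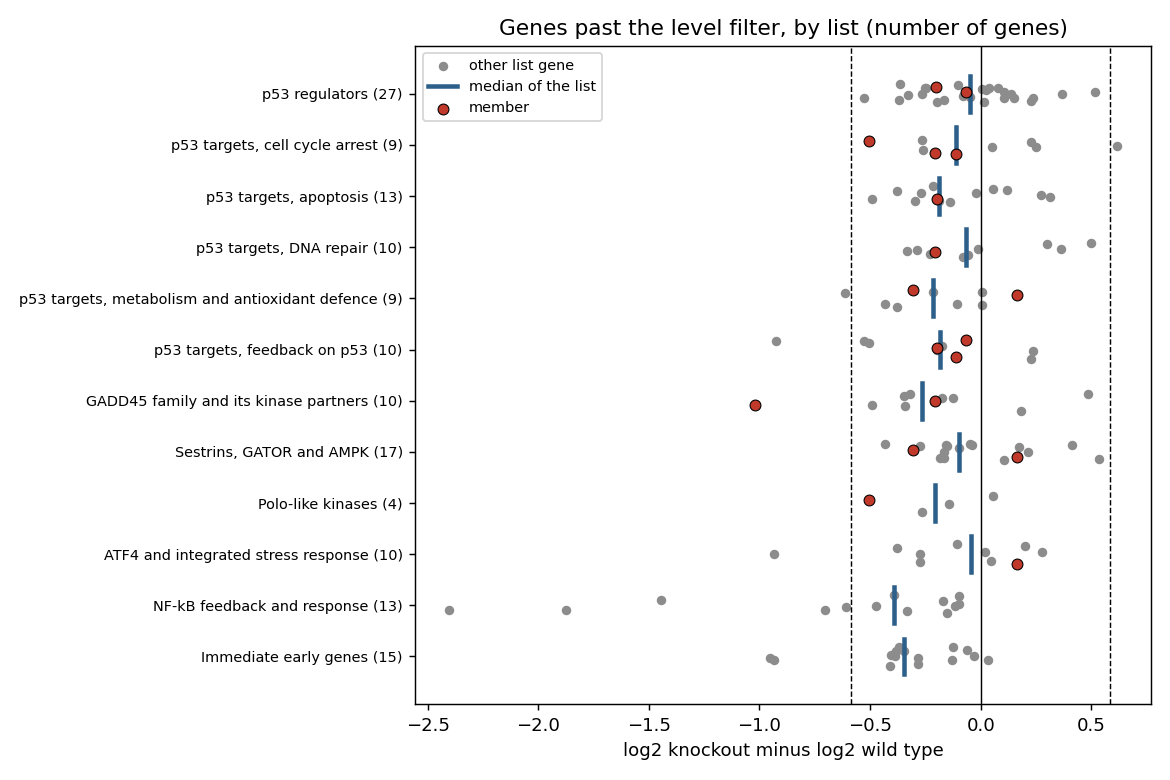
Difference between the arrays for each gene past the level filter in 12 lists, with members in red, other genes in grey, list medians as blue bars and dashed lines at 1.5-fold. The p53 regulators lie on both sides of 0 around a median of −0.05. All 13 genes of the NF-kB list and 14 of 15 of the immediate early list lie below 0. Of those 13, 2 passed the filter through the wild-type array, and some genes stand in several lists.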

How the data were processed

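The submitters hybridised amplified RNA (NuGEN Ovation kits, per the labels' protocols) to 1 array per genotype, and the submitters' processing notes name Partek without a version or role. Each deposited value is the log2 intensity of a probe set. The base was inferred from the range; how background, normalization and probe summary were handled is not given in the sources used here. Sorted values of both arrays differed by at most 0.0866, so a shift of all genes together would not be visible. No depth exists for arrays, and their number limits the precision. Of 28853 probe sets, 21789 had 1 gene symbol, 1621 several and 5443 none; those with 1 were averaged per gene. The level filter was the median gene mean, 6.57. No test was run. Genes were counted at 1.5-fold and 2-fold, and nearby genes were the 500 closest in mean level. Named list genes were those at 1.5-fold or among the 3 furthest of a list, the relatives of the members, and Nfe2l2, Cdkn1a, Bax, Bbc3 and Pmaip1; with 2 arrays, no genes were ranked by likeness of pattern. The members and lists were chosen with earlier results of these data known. Python 3.11.15 with numpy 2.4.6, pandas 2.3.3 and statsmodels 0.14.6 was used, and the gene summary was tested on simulated data. Alternatives were 3 normalizations, the highest probe set, 2 other level filters, 2 other sizes, the mean, and leaving out the furthest member.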

Additional observations from a re-analysis of the deposited data

How the results depend on the processing

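Each of the 9 measured members kept its sign under median centring, quantile normalization and loess. With the main values included, Gadd45b lay between −1.02 and −0.99 and Mdm2, the smallest, between −0.07 and −0.03. The highest probe set could not change a member, since each had 1 probe set. Sorted values of both arrays differed by at most 0.0866, so these normalizations had little room to move a difference. The median of all genes stayed between −0.02 and 0.02 under these scalings. Of 196 values recomputed under an alternative, 188 stayed within the probe-set SD of 0.32 or, for counts, within 1.5 times, and 8 moved. Many of the 188 were counts of 0 before and after, and the shifts by scaling were far smaller than 0.32. Their number therefore says little about stability. The count of members at least 1.5-fold lower, 1 in the main comparison, was 0 with the level filter at the 75th percentile, because Gadd45b was then left out, and 2 at the smallest size tried. With that filter the counts at least 1.5-fold also went to 0 for higher arrest genes, lower feedback genes and lower GADD45 genes, each 1 before, and from 5 to 2 for lower NF-kB genes; fewer genes enter there. Without a level filter 1 apoptosis gene was at least 1.5-fold higher in place of 0, and with quantile normalization 0 metabolic genes were at least 1.5-fold lower in place of 1, Sod2. No paired analysis was possible because each genotype had 1 array. Weak signal limits Sesn2, the member nearest to the level filter.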
